A study of Mus musculus with 26 samples.

Results

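Transcripts of macrophages and neutrophils were followed by RNA-seq in cultures of mouse pro-B cells, as a measure of other blood cells in each culture. The set holds 10 genes, C1qa, C1qb, C1qc, Cd14, Lyz2, S100a8, S100a9, Ngp, Ltf and Lcn2, chosen by earlier results of these data and looked up by symbol. All 10 were found among the 19404 genes of the deletion table and among the 19719 genes of the knockdown table. The members were selected on the group means of both tables, so these means and their differences are given as a description.

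The cultures were B220+ bone marrow cells of C57/Bl6 mice grown with IL7 and SCF for 7 days, and mouse age is not given in the sources used here. In the deletion experiment, Brg1+/+ x ER-Cre controls (2 libraries) and Brg1F/F x ER-Cre cells (2 libraries) both received 0.3 µM tamoxifen for the last 60 hours, so the inducible Cre and the drug are shared by both groups. In the knockdown experiment, Rag1-/- cells were spin-infected on days 3 and 4 with retrovirus carrying Ctrl-sh (3 libraries) or Brg1-sh (3 libraries), and infected cells were enriched 2 days later on hCD25 magnetic beads. Brg1 is the ATPase of SWI/SNF chromatin remodelling complexes and is encoded by Smarca4. Whether the libraries of 1 group come from different mice or cultures is not given in the sources used here. The authors' p-values then measure only the spread between these libraries, which may be technical.

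Macrophages engulf dying cells and debris and, in many tissues, make the 3 chains of C1q, the recognition molecule of the classical complement pathway. Neutrophils are short-lived granulocytes that arise in the bone marrow, where their precursors fill the granules in waves, primary granules first and secondary granules later. B220 is a surface marker of the B lineage, but selection on it can leave other marrow cells in a culture, and SCF and IL7 act on more cells than pro-B cells.

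Among the members, C1qa, C1qb and C1qc encode the A, B and C chains of C1q and lie side by side on mouse chromosome 4 (mm10). C1qb spans 136880129 to 136886187, C1qc 136889804 to 136893065 and C1qa 136895917 to 136898803, all on the minus strand. Cd14 encodes a co-receptor for bacterial lipopolysaccharide on monocytes and macrophages, and Lyz2 encodes lysozyme, which both macrophages and neutrophils make. S100a8 and S100a9 encode the subunits of calprotectin, a calcium-binding complex that fills the neutrophil cytoplasm, and lie on chromosome 3 from 90669071 to 90670034 and from 90692632 to 90695721. Ngp, Ltf and Lcn2 encode secondary granule proteins, namely neutrophilic granule protein, the iron-binding lactoferrin and the siderophore-binding lipocalin 2.

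The 250 bases before the RefSeq start are printed for C1qb and S100a8, a pair of genes with contrasting library patterns. They are also printed for 2 further neutrophil genes, S100a9 and Ltf (RefSeq, GRCm38.p6, written 5′ to 3′). Which starts these transcripts use in the cultures was not measured. Capitals mark AGGAAG, a core bound by PU.1 and other ETS factors, and TTGCNNAA, a core bound by C/EBP factors, on either strand, so that on the other strand AGGAAG reads CTTCCT.
C1qb (chr4:136886201-136886450, minus strand): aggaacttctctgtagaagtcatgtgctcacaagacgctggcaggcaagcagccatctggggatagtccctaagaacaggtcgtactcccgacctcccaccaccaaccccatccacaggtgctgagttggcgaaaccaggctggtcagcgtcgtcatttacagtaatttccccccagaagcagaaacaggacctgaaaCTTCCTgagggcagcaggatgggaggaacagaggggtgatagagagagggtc
S100a8 (chr3:90668821-90669070, plus strand): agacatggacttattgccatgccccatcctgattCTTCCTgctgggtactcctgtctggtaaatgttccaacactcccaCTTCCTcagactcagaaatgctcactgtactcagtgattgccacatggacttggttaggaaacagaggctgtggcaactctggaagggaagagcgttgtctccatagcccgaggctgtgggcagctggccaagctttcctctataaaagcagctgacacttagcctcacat
S100a9 (chr3:90695722-90695971, minus strand): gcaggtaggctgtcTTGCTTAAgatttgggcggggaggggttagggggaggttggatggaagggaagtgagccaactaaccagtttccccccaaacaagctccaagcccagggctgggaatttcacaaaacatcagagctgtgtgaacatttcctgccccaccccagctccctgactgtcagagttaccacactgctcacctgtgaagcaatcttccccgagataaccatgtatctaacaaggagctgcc
Ltf (chr9:111019042-111019291, plus strand): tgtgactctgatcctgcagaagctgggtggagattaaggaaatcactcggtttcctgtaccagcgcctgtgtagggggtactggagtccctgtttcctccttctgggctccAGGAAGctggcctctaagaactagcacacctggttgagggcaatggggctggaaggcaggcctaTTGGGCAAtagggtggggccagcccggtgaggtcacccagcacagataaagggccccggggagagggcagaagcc

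The motifs were searched in this window for 8 members, all but C1qa and Cd14. Part of the window lay inside the gene span of the expression data for C1qc (151 bases), Ngp and Lcn2 (58 each) and Lyz2 (2). AGGAAG occurred in 6 of the 8, against 29.5% of all 32851 promoters in the RefSeq table. TTGCNNAA occurred in 4 of the 8, in S100a9, Ngp, Ltf and Lcn2, against 9.56% of all promoters. These 2 strings do not overlap each other in the 4 windows shown, and they were chosen after their matches had been seen. A match describes the letters and is not a measured binding site.

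The libraries of the deletion experiment differed from each other in these transcripts far more than the groups did. Each deposited group mean of that table could be split into whole reads of its 2 libraries for every member except Lyz2, whose mean is too high for a single solution. Libraries are numbered by depth within a group, since the recovered reads carry no replicate number. Control libraries 1 and 2 held about 10763403 and 10217485 reads, and Brg1-deleted libraries 1 and 2 about 11587930 and 8783718. In the knockdown experiment the libraries held about 5201378 to 11050884 reads. The targeted gene Smarca4 was lower in both depleted groups, 2.95-fold after deletion and 1.98-fold after knockdown in the authors' deposited tables. As for the labelled cell type, all 20 B lineage markers were listed, with a summed level of 8768 RPM in pro-B controls, 12738 in Brg1-deleted cells, 8710 in Rag1-null controls and 10172 with Brg1 shRNA, where RPM are reads scaled to 1000000 per column or library.

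By group mean, the C1q genes stood highest in the pro-B controls and lowest in the Rag1-null cultures, an order that 1 library of each pro-B group carried. Their summed group means came to 18.8 RPM in pro-B controls, 12.7 in Brg1-deleted cells, 1.97 in Rag1-null control shRNA cells and 1.39 with Brg1 shRNA. That is a 9.54-fold difference between the controls and a 9.18-fold difference between the depleted groups. Without control library 2 the first came to 0.992-fold, and without Brg1-deleted library 1 the second came to 1.23-fold. Without control library 1 and Brg1-deleted library 2 they came to 18.3-fold and 17.3-fold. The 5 neutrophil genes differed less, with sums of 31.4, 23.2, 17.003 and 14.4 RPM in the same order, or 1.85-fold between the controls and 1.61-fold between the depleted groups. Both directions turned when 1 library was left out, to 0.173-fold without control library 1 and to 0.024-fold without Brg1-deleted library 2. Without control library 2 and Brg1-deleted library 1 they came to 3.48-fold and 3.16-fold. The tables were normalized separately, so these levels were set on a common scale by each column's total and were not tested.

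Lyz2 had the highest group mean of the members in every culture, and per length in all but the Rag1-null control shRNA cells. In RPM per kb of exon, its authors' mean stood at 281 in pro-B controls, 189.9 in Brg1-deleted cells, 16.2 in Rag1-null control shRNA cells and 20.3 with Brg1 shRNA. On the same scale per length, S100a8 and S100a9 came next in pro-B controls at 27.2 and 17.04, followed by C1qb at 9.84, Ngp at 4.56, Cd14 at 3.71, C1qc at 3.17, C1qa at 1.86, Ltf at 1.36 and Lcn2 at 1.13. In Rag1-null control shRNA cells the order was different, with S100a8 at 17.3 just above Lyz2 at 16.2, then S100a9 at 9.25 and Ngp at 3.20, while C1qb stood at 1.24 and the remaining 5 genes at 0.061 to 0.385. Group means carry no spread of their own, so which neighbours in these orders differ could not be judged from them.

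**Figure D1:**
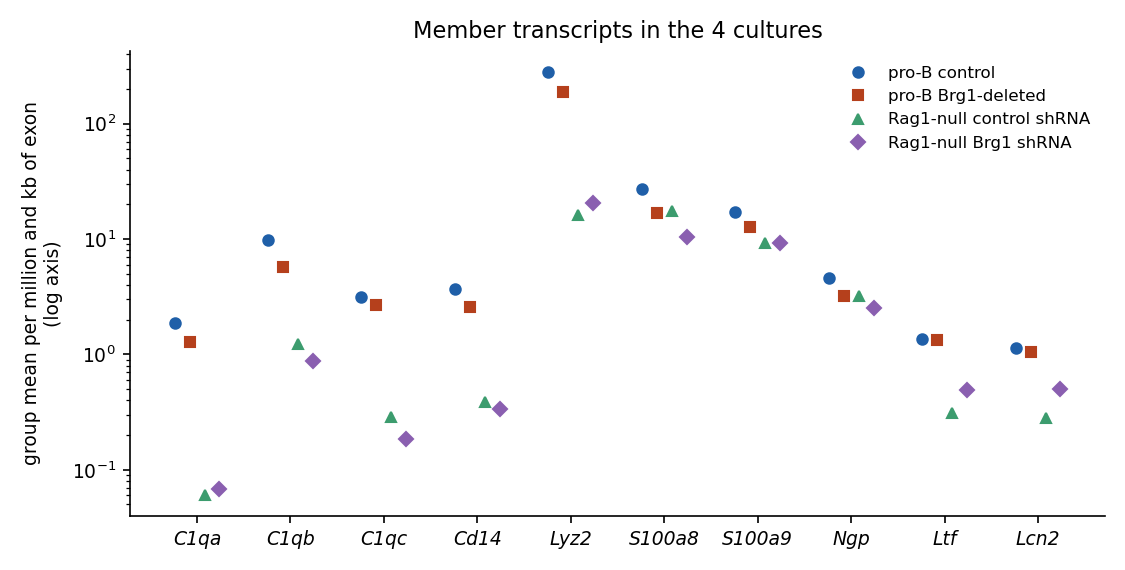
Authors' group means of the 10 members in RPM per kb of exon (vertical log axis), 1 point per culture, with no error bar because the tables give 1 mean per group. As group means, Lyz2, the C1q genes and Cd14 sit far lower in the Rag1-null cultures than in the pro-B cultures and S100a8, S100a9 and Ngp differ less. For the C1q genes 1 library of each pro-B group carries this difference, the other standing at 1.95 or 1.71 RPM in sum, within the range of the control shRNA libraries (1.59 to 2.31 RPM). For Cd14 the lower control and Brg1-deleted libraries stood at 0.836 and 0.569 RPM, against Rag1-null means of 0.605 and 0.528. Lyz2 could not be split by library.

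By group mean, all 10 members had a higher level in RPM in pro-B controls than in Rag1-null controls. The higher pro-B control library of all 9 resolved members also lay above the Rag1-null mean. The group means fix that outcome, so it adds nothing to them. The lower one lay below the Rag1-null mean for 5 of the 9, S100a8 at 1.27 RPM against 6.80, S100a9 at 0.196 against 4.83, Ngp at 0 against 3.89, Ltf at 0 against 0.848 and C1qb at 1.11 against 1.35. The median log2 ratio was 2.56 over the members, beside 0.05 over the 12501 genes of both tables whose mean reached 10, of which 57.2% lay above 0 and the upper 2.5% lay above 2.23. By these means, Lyz2 was 17.3-fold higher in pro-B controls, C1qc 11.1-fold, Cd14 9.65-fold and C1qb 7.94-fold. The lower pro-B control library stood much closer to the Rag1-null control mean, for Cd14 at 0.836 RPM against 0.605 and for C1qc at 0.743 against 0.553. The ratio of C1qa, with 2 reads in all Rag1-null control libraries together, is not given. Ltf was 4.38-fold and Lcn2 4.06-fold higher. S100a9 was 1.84-fold, S100a8 1.57-fold and Ngp 1.43-fold higher. The experiments differ in Rag1 genotype, in tamoxifen against viral infection and in bead enrichment, and ER-Cre is named only for the deletion experiment. What each of these contributes cannot be told apart. In bulk samples such as these, fewer cells of a type and less RNA per cell cannot be told apart either.

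Within the deletion experiment, the C1q genes and Cd14 were high in control library 2 and in Brg1-deleted library 1 and low in the other 2 libraries. C1qb, in normalized reads, stood at 11.7 and 210.2 in control libraries 1 and 2 and at 117 and 9.30 in Brg1-deleted libraries 1 and 2. C1qc stood at 7.80 and 119 in controls, against 96.8 and 6.98 after deletion. C1qa, the chain with the fewest reads, stood at 0.975 and 39.0 in controls, against 25.9 and 1.16 after deletion. In each of these genes 1 library of each group was high and the other low, so the groups overlapped. Cd14 followed the same order, at 8.78 and 112 in controls, against 76.0 and 5.81 after deletion. Summed over the 3 C1q genes, the higher control library exceeded the lower one 18.0-fold, from 368 against 21 reads, and the higher Brg1-deleted library exceeded the lower one 13.8-fold, from 278 against 15 reads.

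The neutrophil genes had the opposite order, high in control library 1 and in Brg1-deleted library 2. S100a8 stood at 208 and 13.0 normalized reads in control libraries 1 and 2 and at 0.864 and 134 in Brg1-deleted libraries 1 and 2. S100a9 stood at 182 and 2.00 in controls and had the same recovered reads as S100a8 in both Brg1-deleted libraries, 0.864 and 134 once normalized. The calprotectin pair had 1 read each in the deeper Brg1-deleted library. Ngp stood at 115 and 0 in controls, against 1.73 and 76.8 after deletion. Ltf stood at 77.0 and 0 in controls, against 0 and 73.3 after deletion. Lcn2 stood at 39.0 and 15.0 in controls, against 0 and 48.8 after deletion. For all 5 genes the groups overlapped, and the low library of each group was the one rich in C1q. A count of 0 allows a level of up to 3.00 normalized reads in control library 2 and 2.59 in Brg1-deleted library 1, for counting error alone and at a floor of 3 reads.

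Lcn2 had the smallest difference between the control libraries among these genes, with a log2 gap of 1.35 after adding 0.5, where Ngp and Ltf reached 7.85 and 7.28. Summed over the 5 genes, control library 1 exceeded library 2 20.7-fold, from 637 against 30 reads. Brg1-deleted library 2 exceeded library 1 135-fold, from 401 against 4 reads. The order did not follow depth, since the library rich in C1q was the shallower of the controls and the deeper of the Brg1-deleted pair.

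**Figure D2:**
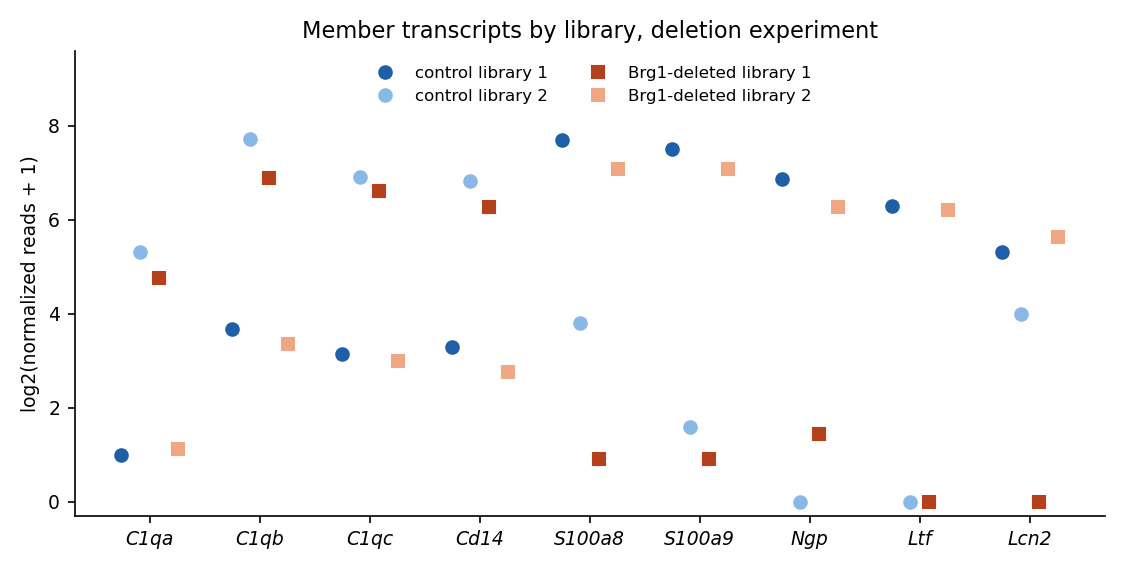
Level of 9 members in each library of the deletion experiment, as log2 of normalized reads plus 1, 1 point per library (circles for the 2 control and squares for the 2 Brg1-deleted libraries). The C1q genes and Cd14 are high in control library 2 and Brg1-deleted library 1, and the 5 neutrophil genes in the other 2 libraries.

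Differences of this size between the libraries of a group were uncommon in the table. Of the 9 resolved members, 8 differed more than 4-fold, after adding 0.5, between the libraries of both groups, where 4.56% of the 14441 resolved genes whose mean reached 1 did so. The order of C1qb was held by 35.7% of these genes and that of S100a8 by 31.5%, so either order is common by itself. With a gap above 4-fold in both groups, 417 genes had the order of C1qb, 4 members among them, and 111 that of S100a8, also with 4 members among them. The remaining member, Lcn2, had the order of S100a8 with a smaller control gap. In none of the 9 members were the groups free of overlap, beside 46.4% of the 14441 genes.

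Other macrophage genes were distributed over the libraries as the C1q genes were. Of 30 listed markers, 28 were in the deletion table and 24 could be resolved, and 21 of these 24 had the order of C1qb, beside 35.7% of all resolved genes. Csf1r, the receptor of the macrophage growth factor CSF1, stood at 259 and 913 normalized reads in control libraries 1 and 2 and at 683 and 186 after deletion. Emr1, which encodes the macrophage antigen F4/80, stood at 68.3 and 222 in controls, against 255 and 87.2 after deletion. Their lower libraries were less empty than those of C1qb. Summed over the 24 genes, the libraries held 929 and 3436 in controls and 2831 and 784 after deletion, a narrower range than that of the C1q genes. The exceptions were Vcam1, Spic and Lyz1, all with a mean below 20 in both groups. The most abundant markers of this list, Ctsb, Gpnmb and Lgmn, could not be resolved. On deletion their log2 fold changes were -0.15, 0.09 and 1.55, with no call among them, beside 1.47% of all genes, per the authors' deposited table.

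The broader neutrophil list did not follow one order. Of its 30 genes, 21 were in the deletion table, and of the 20 whose mean reached 1, 7 had the order of S100a8 and 9 that of C1qb. The 7 were Chi3l3, Padi4, Cebpe, Camp, Cd177, Itgb2l and Lrg1. The 9 were Anxa1, Csf3r, Mmp8, Clec4d, Ltb4r1, Fpr2, Il1b, Fpr1 and Mmp9. Of these, Mmp8 stood at 93.6 and 140 normalized reads in control libraries 1 and 2, against 66.5 and 50.0 after deletion. Camp and Cd177 had few reads, with means over both groups of 5.18 and 4.73. Camp, which encodes the peptide cathelicidin, stood at 10.7 and 1.00 in controls, against 0.864 and 8.14 after deletion. Cd177, a neutrophil surface protein, stood at 16.6 and 0 in controls, against 0 and 2.33 after deletion. Chi3l3, a chitinase-like protein also made by macrophages, stood at 339 and 152 in controls, against 23.3 and 115 after deletion. Anxa1, a phospholipid-binding protein that macrophages also make, had the order of C1qb, at 237 and 456 in controls against 499 and 162 after deletion. Csf3r, the receptor of the granulocyte growth factor, was also of that order, with authors' means of 117 and 92.5. Padi4, Cebpe, Camp, Cd177, Itgb2l, Lrg1, Csf1r, Emr1, Vcam1, Spic, Lyz1, Dntt and Rag2 fall outside the rule for named genes. So do Mmp8, Clec4d, Ltb4r1, Fpr2, Il1b, Fpr1 and Mmp9. All of them were chosen with their values known.

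**Figure D3:**
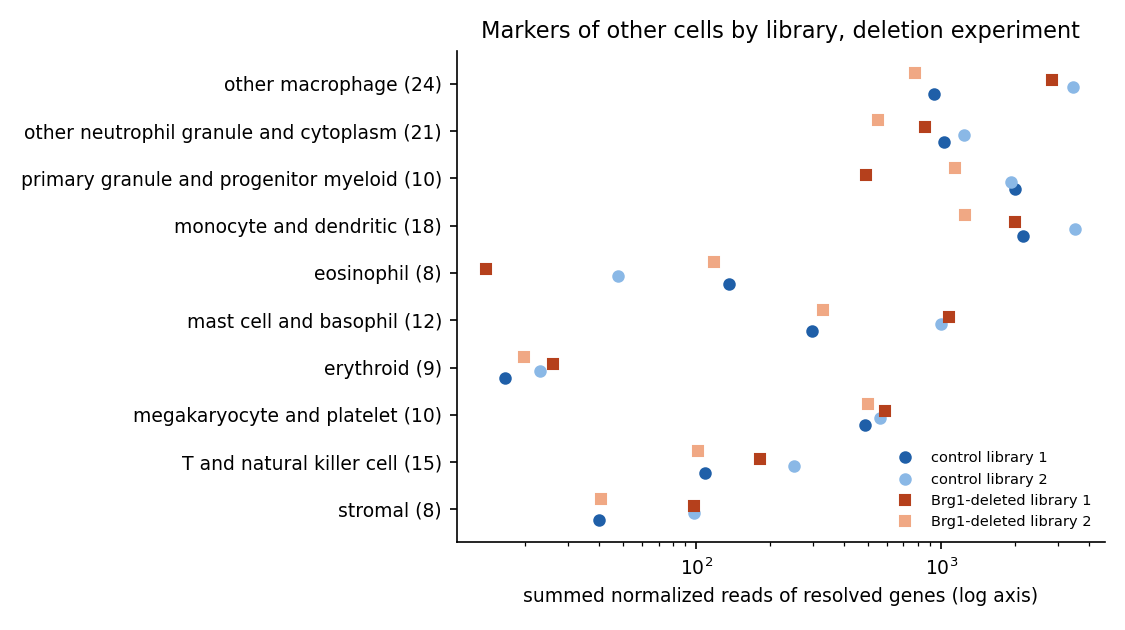
Summed normalized reads of the resolved genes of 10 marker lists (number of genes in brackets) in each library of the deletion experiment, on a log axis, 1 point per library. Macrophage markers are highest in control library 2 and Brg1-deleted library 1 and eosinophil markers in the other 2 libraries, while the sums of the broader neutrophil list and of platelet markers differ less between libraries.

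A list of primary granule and progenitor myeloid genes, which mark earlier stages of myeloid development, was mixed in its order. Of its 10 resolved genes, 5 had the order of S100a8 and 3 that of C1qb. Prtn3, a granule protease, stood at 390.01 and 495 in control libraries 1 and 2 and at 37.1 and 126 after deletion. Ctsg, another protease, stood at 197 and 207 in controls, against 15.6 and 54.7 after deletion. For both genes every control library lay above every Brg1-deleted library. Groups free of overlap, in either direction, were common, at 46.4% of the 14441 resolved genes and 53.6% of those whose mean reached 10. Of the 12 genes of this list, 5 were called lower in the authors' deposited table, namely Prtn3, Ctsg, Elane, Ly6c2 and Ms4a3, beside 0.742% of all genes called lower there. Mpo, the most abundant of the list, had authors' means of 2177 and 513 without a call, and it could not be resolved. Of the 18 monocyte and dendritic genes, all resolved, 12 had the order of C1qb and 0 that of S100a8, beside 35.7% and 31.5% of resolved genes. Cybb, the most abundant of them, stood at 373 and 907 in controls, against 688 and 373 after deletion. F13a1 of this list, a coagulation factor subunit, was called lower from 433 to 109 in the authors' deposited table. In the broader neutrophil list Hp, haptoglobin, was called lower there from 127 to 34.3.

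Between Brg1-deleted and control group means, all 10 members lay below 0, with a median log2 fold change of -0.56, beside a median of 0.00 and 50.1% below 0 over all 19404 genes. C1qb had the lowest value, -0.81, from an authors' mean of 111 to 63.4, and Ltf the highest, -0.07, from 38.5 to 36.6. Between them were S100a8 at -0.71, Lyz2 at -0.60, C1qa and Cd14 at -0.56, Ngp at -0.55, S100a9 at -0.45, C1qc at -0.29 and Lcn2 at -0.15. At an adjusted p under 0.05 in the authors' deposited table, 0 of the 10 were called, beside 1.47% of all genes, 0.732% higher and 0.742% lower. At an unadjusted p under 0.05 the count was again 0 of 10, beside 9.52% of genes. The B lineage markers had a higher sum after deletion, 12738 against 8768 RPM, and 1 of the 20, the antigen receptor component Cd79b, was called higher, from 8045 to 20542, in the authors' deposited table. The part of this difference in the values of the members was not tested. In limma on the recovered reads 0 of the 9 resolved members and 0 of all 14441 genes were called, with 2178 genes at an unadjusted p under 0.05 and none of them a member.

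The direction of these differences turned when some single libraries were left out. The summed C1q genes had a log2 ratio of -0.59 after deletion with all libraries, but 2.65 without control library 2 and 0.31 without Brg1-deleted library 2. Without Brg1-deleted library 1 it was -3.48 and without control library 1 it was -1.52. The summed neutrophil genes had a log2 ratio of -0.47 with all libraries, but 2.97 without control library 1 and 0.52 without Brg1-deleted library 1, and -6.56 and -1.40 without Brg1-deleted library 2 and control library 2. Leaving out 1 library thus turned the direction in 2 of 4 cases for either sum. Each such ratio sets 1 library against 2 unlike ones. Between the higher libraries, the C1q sums were 368 normalized reads in controls and 240 after deletion, and between the lower ones 20.5 and 17.4. The neutrophil sums were 621 and 466, and 30.0 and 3.46. Matched by level in this way, the Brg1-deleted sums were the lower ones, but not every gene followed its sum. Lcn2 stood at 39.0 in the higher control and 48.8 in the higher Brg1-deleted library. In the lower libraries C1qa stood at 0.975 and 1.16 and Ngp at 0 and 1.73. The lower C1q sums rest on 21 and 15 reads. This matching was chosen with the values known, carries no replicate label and was not tested.

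**Figure D4:**
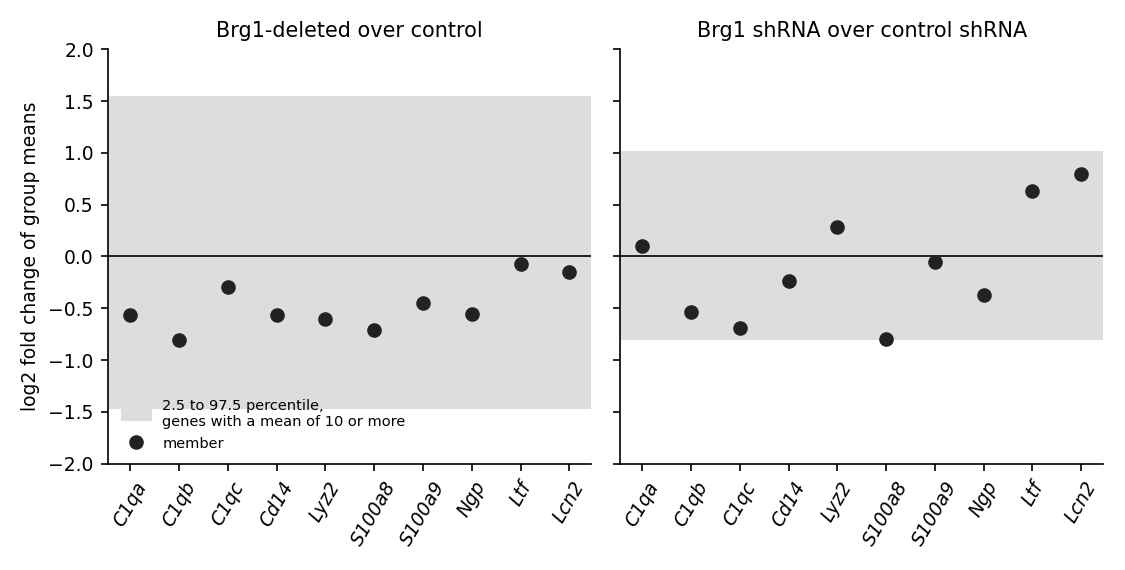
Log2 fold change of the authors' group means for each member, on deletion (left) and on knockdown (right), with a grey band for all genes whose mean reached 10, less the outer 2.5% at each end. All 10 members lie below 0 on deletion and 6 on knockdown, and all points lie inside the grey range of their panel. On knockdown only 5 members reach the mean of 10 that the band requires, so it does not describe genes as low as the others.

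On knockdown in Rag1-null cells the members did not share a direction. The 6 below 0 were C1qb at -0.53, C1qc at -0.69, Cd14 at -0.24, S100a8 at -0.79, S100a9 at -0.06 and Ngp at -0.38, and those above 0 were Lcn2 at 0.80, Ltf at 0.63, Lyz2 at 0.28 and C1qa at 0.10. The median log2 fold change was -0.15, beside 0.00 over all 19719 genes, of which 50.3% lay below 0. At an adjusted p under 0.05 in the authors' deposited table, 0 of the 10 were called, beside 0.218% of all genes, 0.177% higher and 0.0406% lower. At an unadjusted p under 0.05 the count was 0 of 10, beside 2.74% of genes. Lyz2 went from an authors' mean of 182 to 222, S100a8 from 60.3 to 34.8, S100a9 from 42.9 to 41.2 and Ngp from 34.5 to 26.6.

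The knockdown means pool 3 libraries and could be split into reads for C1qa, C1qb, C1qc and Cd14 in both groups and for Ltf and Lcn2 in the controls. C1qb, in normalized reads, stood at 12.7, 11.3 and 11.9 in control shRNA libraries 1 to 3 and at 3.12, 11.4 and 10.4 in the Brg1 shRNA libraries. The control libraries were close together, and the groups overlapped through Brg1 shRNA library 2, which lay above the lowest control. C1qc stood at 3.38, 2.83 and 8.53 in controls and at 0.779, 5.25 and 3.11 with Brg1 shRNA, again with overlap. Cd14 stood at 5.91, 8.48 and 1.71 in controls and at 2.34, 6.12 and 5.18 with Brg1 shRNA. C1qa had 2 reads in all control libraries together and 2 in all Brg1 shRNA libraries, so its fold is not interpretable.

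Brg1 shRNA library 1 was the lowest of its group for C1qb, C1qc and Cd14. The C1q genes together had 6 reads there, against 19 and 14 in the other two. In RPM, the summed C1q genes ranged from 1.59 to 2.31 over the control shRNA libraries and from 0.543 to 1.93 over the Brg1 shRNA libraries. On the same scale they stood at 1.95 and 36.0 in pro-B control libraries 1 and 2 and at 24.0 and 1.71 in Brg1-deleted libraries 1 and 2. Between the group means on knockdown, the summed C1q genes had a log2 ratio of -0.55, and -0.17 without Brg1 shRNA library 1. Cd14 had -0.24, but 0.07 without Brg1 shRNA library 1 and 0.26 without control shRNA library 2. For the summed C1q genes, the libraries of a group spanned a narrower range in the knockdown than in the deletion experiment.

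Among the neutrophil genes in the control shRNA libraries, Ltf stood at 4.22, 4.71 and 13.7 and Lcn2 at 4.22, 0.942 and 11.9, both highest in library 3, the shallowest. In the Brg1 shRNA group 2 splits were possible for each of these genes, and for S100a8, S100a9 and Ngp between 4 and 13 were possible in each group, so no value per library is given.

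**Figure D5:**
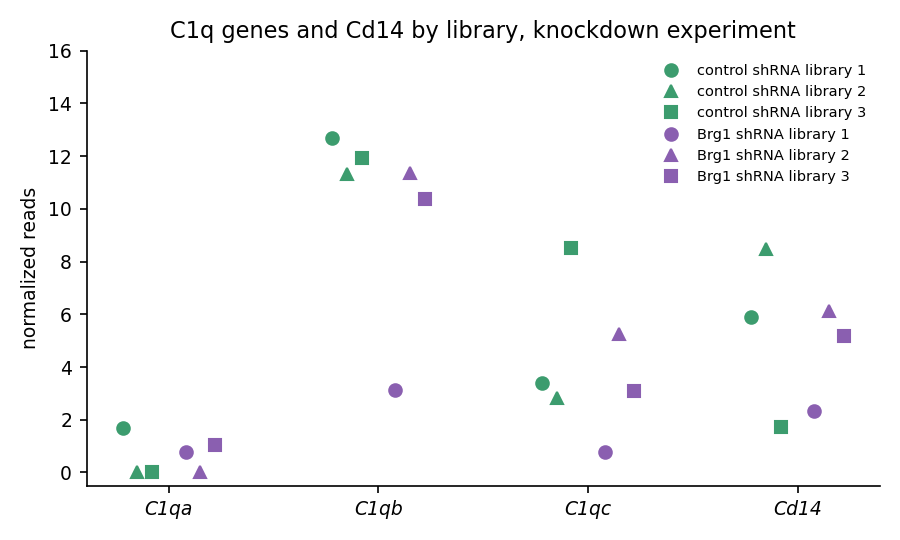
Normalized reads of the C1q genes and Cd14 in each of the 3 control shRNA and 3 Brg1 shRNA libraries of Rag1-null cells (linear axis, 1 point per library). C1qb lies between 11.3 and 12.7 in the controls, and Brg1 shRNA library 1 lies lowest of its group at 3.12.

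The genes whose values over the 4 deletion libraries were most like those of C1qb were Ccl6, a chemokine of myeloid cells, then Iigp1, Il2rb, Igf1 and Oas1g. Likeness was the root-mean-square distance between centred log2 profiles, over 9479 other genes whose mean reached 10, and it was 0.17 to 0.30 for these 5. Ccl6 stood at 18.5 and 242 in controls, against 165 and 14.0 after deletion, next to 11.7, 210.2, 117 and 9.30 for C1qb. For S100a8 the nearest genes were less alike, at distances of 0.40 to 0.72, and were TUG1_3, Gm6851, Cacna1h, Gm10307 and AI661453. Cacna1h, a calcium channel subunit, stood at 247 and 49.0 in controls, against 3.46 and 264 after deletion. With 4 libraries many genes share an order, so these lists describe the table only.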

How the data were processed

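The 10 polyadenylated RNA libraries were strand-marked with dUTP, per the labels' protocols. The other 16 samples of the series were not analysed here. CASAVA, RSEM and DESeq are named in the submitters' processing notes, with the mm10 build and no versions. The deposited mean columns hold a signal, reads divided by size factors and averaged per group, as their names and values show. Per the file headers, the authors also gave a log2 fold change, a p-value and adjusted p-value, a signed linear fold (read as a score) and the exon length. Genes with no reads in a group may not be listed.

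Groups came from the sample titles. Steps worth 1 read per library were found from the lowest means and refined by least squares on means below 400 (deletion) or 12 (knockdown). All 19404 deletion genes had a whole-read solution within 6.0e-05, beside 2.65% and 2.45% of random values up to 100 in the control and Brg1-deleted columns. A solution was taken as the only one if no other lay within 1.5e-04. Knockdown means below 12 all had a solution, beside 8.0% and 12.1% of random values. Knockdown depths are the column total times the size factor. Deletion depths are sums of reads over all genes. A single solution was found for 93.3% of genes in the control and 82.6% in the Brg1-deleted column. For the other genes the split most even between the 2 libraries was assumed, so these depths, and the RPM per library that use them, are approximate. The recovery and limma were tested on simulated data.

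Recovered reads were divided by the size factor, and 0.5 was then added. The values were put on a log2 scale and tested with limma 3.58.1 (R 4.3.3, trend by mean level). Members, marker lists and tests were chosen with earlier results of these data known. Named genes were the members, the 3 most abundant and the called genes of each marker list, and the 5 genes most like C1qb and S100a8. Not every one is printed, and the report names those outside the rule. Alternatives changed the threshold, adjustment, minimum fold, filter, scaling, pseudocount, weighting and libraries used. Python 3.11.15, numpy 2.4.6, pandas 2.3.3 and matplotlib 3.10.9 were used.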

Additional observations from a re-analysis of the deposited data

How the results depend on the processing

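No member was called in either experiment under an adjusted p threshold of 0.1, an adjustment over the listed genes, a minimum fold of 1.5 or a mean of at least 10. That mean was reached by all 10 members on deletion but by only 5 on knockdown. As reported, at an adjusted p under 0.05, 1.47% of all genes were called on deletion and 0.218% on knockdown. Scaling columns to equal totals and a pseudocount of 1 turned the direction of none of the 10 members in either experiment. Leaving out 1 library gave log2 ratios of -3.48 to 2.65 for the summed C1q genes and of -6.56 to 2.97 for the summed neutrophil genes on deletion. On knockdown, the neutrophil genes had a log2 ratio of -0.28 as a sum and of 0.0409 as a mean over genes, which gives Ltf and Lcn2 the weight of S100a8. The control gap of the neutrophil genes was 4.37 on the log2 scale as a sum and 6.19 as a median over genes. limma called 0 of 14441 genes with all libraries, so the absence of member calls there says nothing about the members. Fits without 1 library leave a lone library in a group, so only their effect sizes are given. In them, the limma log2 fold change ran from -2.63 to 1.48 for C1qb and from -5.28 to 1.34 for S100a8. No paired analysis was possible because the group-mean columns and the recovered reads carry no replicate numbers. Low read counts limit C1qa, at 2 reads per knockdown group. For the pro-B over Rag1-null log2 ratios, leaving out 1 pro-B library, an alternative added after the data were seen, gave -0.011 to 4.195 (controls) and 0.30 to 4.11 (depleted groups) for the C1q genes. It gave -2.53 to 1.80 and -5.39 to 1.66 for the neutrophil genes. On knockdown, leaving out 1 library gave -0.86 to -0.17 for the summed C1q genes. The neutrophil sum could not be recomputed that way there, because its genes had several whole-read solutions.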

Other observations

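Other blood cell markers also differed between the libraries of the deletion experiment. Mast cell and basophil genes had the order of C1qb in 11 of 12 cases, beside 35.7% of resolved genes. Cpa3, a mast cell carboxypeptidase, stood at 100.4 and 252 normalized reads in control libraries 1 and 2 and at 266 and 82.6 after deletion, and the tryptase gene Tpsb2 at 44.9 and 201 against 242 and 66.3. Of 15 T and natural killer cell genes, 12 had that order, most of them with a mean below 20. Il2rb, an interleukin receptor chain, stood at 3.90 and 81.1 in controls, against 44.9 and 4.65 after deletion. None of the genes of these 2 lists was called in either of the authors' deposited tables, beside 1.47% of all genes on deletion and 0.218% on knockdown. With so few genes this count says little about the lists.

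Eosinophil genes had the order of S100a8 in 5 of the 6 whose mean reached 1, beside 31.5% of resolved genes. Prg2, the granule major basic protein, stood at 73.1 and 3.00 normalized reads in controls, against 2.59 and 79.1 after deletion. Only 3 B lineage genes were resolved, and all 3 had the order of S100a8. Dntt, the terminal transferase of pro-B cells, stood at 1560 and 986 in controls, against 81.2 and 592 after deletion, and Rag2, a recombinase subunit, at 602 and 489 against 317 and 626. Erythroid genes were low in all 4 libraries, with a summed level of 16.6 to 25.9 normalized reads over 9 genes.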
